A study of Drosophila melanogaster with 4 samples.

Results

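The snail family cluster of Drosophila melanogaster is the stretch of chromosome arm 2L that holds escargot (esg), worniu (wor) and snail (sna), 3 neighbouring genes for related zinc finger proteins. Its peaks were taken as all those on 2L with a midpoint inside a window of 260 kb around these genes. The window was set by position and not by any measured value, though with earlier results of these data known. In FlyBase release 5, whose numbering is used for every peak given here, the outermost edges of these peaks are 15243061 and 15500069. The window held 71 of the 16117 peaks of the series and of the 2862 peaks of 2L. The data are chromatin immunoprecipitation followed by sequencing (ChIP-seq) of the homeodomain protein Distal-less (Dll), with 2 ChIP libraries and 2 input libraries of unprecipitated chromatin. All 4 came from white prepupae, the stage at the start of metamorphosis, of the strain Y cn bw sp, and no dissected tissue is named in the labels. The genotype given for both groups carries y[1] with oc[R3.2], then Gr22b[1], Gr22d[1] and cn[1] together with CG33964[R4.2], bw[1] and also sp[1], and LysC[1], lab[R4.2] and MstProx[1] besides GstD5[1] and Rh6[1]. The antibody was an affinity-purified rabbit serum against Dll.

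Proteins of the Snail family are mostly repressors of transcription, which bind E-box sequences in DNA and recruit the corepressor CtBP. In the fly embryo sna sets up the mesoderm by keeping genes of the neighbouring ectoderm off, wor acts in neural stem cells (neuroblasts), and esg keeps imaginal cells, the precursors of adult structures, diploid. In the adult gut esg also marks and maintains stem cells. Dll directs the formation of the distal limb and is active in the leg and antennal discs, from which the adult appendages form in the pupa.

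The deposited outcome is 1 list for all 4 libraries, with a start, an end and a single score for each peak. The score is the authors' own value, its scale is not named, and it is used here only to rank and describe peaks. There are 0 values per library, so the depth is unknown and neither an error between replicates nor a ratio of ChIP to input can be given for any peak. Every spread below is between peaks or between windows of the genome.

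Dll peaks were packed densely over the cluster. Its 71 peaks amounted to 273 per Mb, against 132 per Mb over 2L, 2R, 3L, 3R and X together, and covered 14.6% of the window. The flanks on 2L were much emptier. The adjoining window of 260 kb on the low-coordinate side held 22 peaks and the one beyond it 1, while the adjoining windows on the high-coordinate side held 9 and 8. Peaks covered 4.22% of the nearer window on the low side and 1.93% of the nearer window on the high side.

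Set among the other 452 windows of that length on the large arms, the cluster had more peaks than 430 of them and fewer than 21 (95.1% lower, exact 95% interval 92.7 to 96.9, which covers counting error over windows only). The other windows had a median of 32 peaks (interquartile range 21 to 45) and a maximum of 121. On 2L alone, 2 of 86 other windows held more peaks, with 85 and 78. In the share of its length under peaks the cluster stood above 407 of the 452 windows, whose median was 6.66%.

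**Figure D1:**
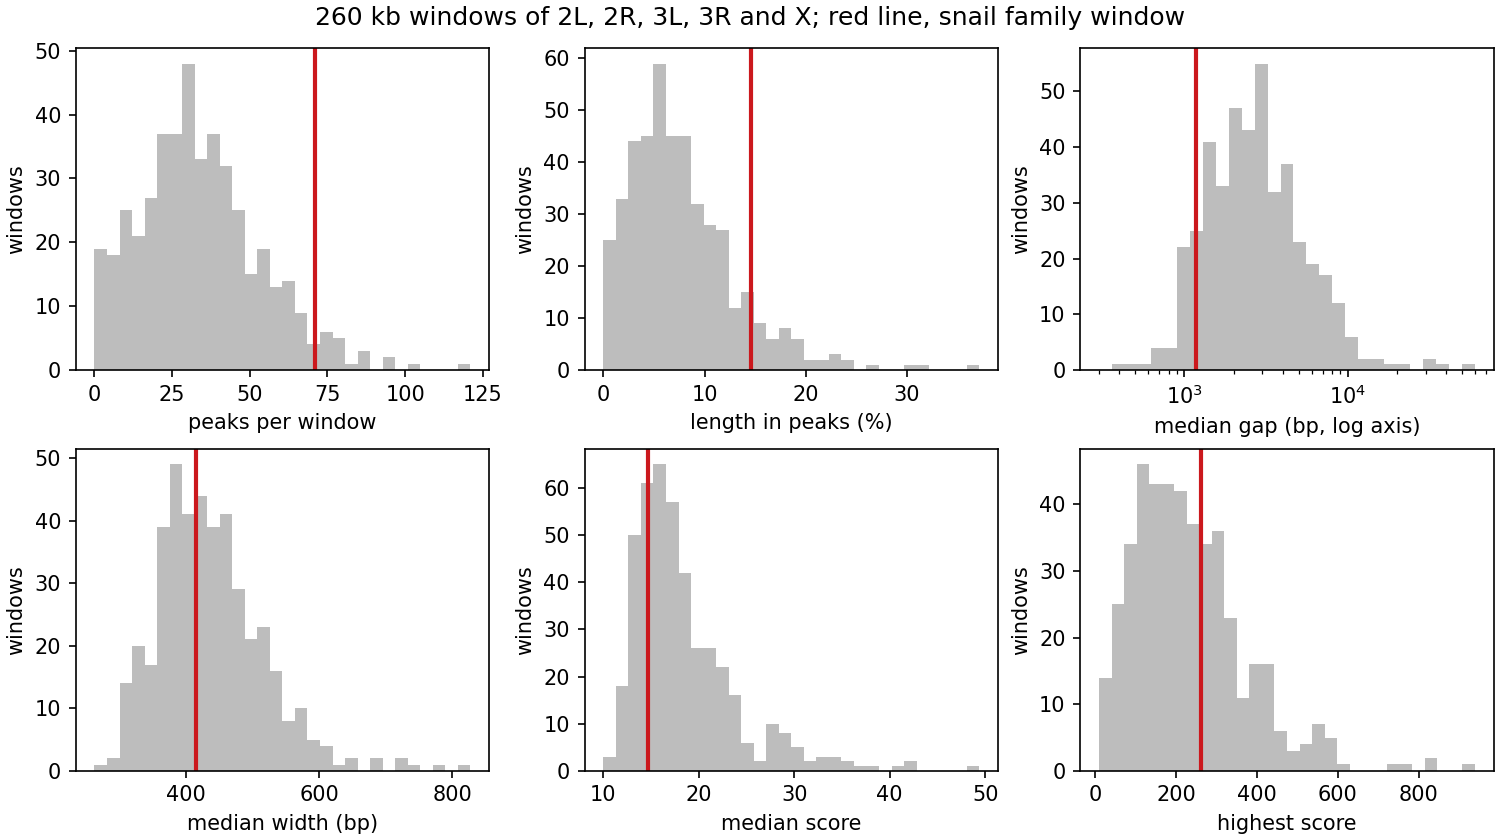
Distribution of 6 measures over the 260 kb windows of 2L, 2R, 3L, 3R and X (grey bars, number of windows), with the snail family window as a red line. With 71 peaks and 14.6% of its length in peaks the window lies in the upper tail, with a median gap of 1175 bp near the lower end, and in the middle of the distribution for median width; its median score is below that of most windows.

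The cluster stood out in the number of its peaks and not in their strength. The median score was 14.66 (interquartile range 10.6 to 35.0), against 17.0 (11.6 to 34.8) for all 15615 peaks of the large arms. Of 433 windows with at least 5 peaks, 103 had a lower median score and 322 a higher one. Among the 71 peaks, 7 were in the highest 10% by score, where 10.0% of all peaks of the large arms are by construction, and 18 were in the highest 25%, where 25.1% are. In the upper 50%, which with ties holds 50.4% of all peaks, there were 29 of the 71, or 40.8%. As a share of the peaks, strong ones thus occurred at about the background rate. For its length the window also held many strong peaks: 420 of the 452 other windows had fewer than its 18 in the highest 25% (median 8). Of the 71 scores, 47 (66.2%) were under 20, where 57.5% of all peaks of the large arms are. The low place of the median score did not hold among stronger peaks. With the highest 50% of peaks alone, 78.5% of windows had a lower median, and with the highest 25%, 48.4%. With peaks within 1000 bp merged, each given the highest score of its parts, 52.2% of windows had a lower one. Merging removes the lower scores of close neighbours by construction, so that value does not bear on the stronger peaks.

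Widths were ordinary for the genome. The median was 415 bp (interquartile range 268 to 631 bp), against 435 bp for the large arms, and 191 of 433 windows had a lower median. At least 1000 bp were covered by 8 of the 71 peaks (11.3%, background 12.2%). Wider peaks had higher scores, as in the whole list. Across the 71 peaks of the cluster, width and score had a Spearman correlation of 0.772, and a Pearson correlation of 0.788 on a log10 scale, a description across neighbouring peaks of 1 list. For the large arms the Spearman correlation was 0.721.

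**Figure D2:**
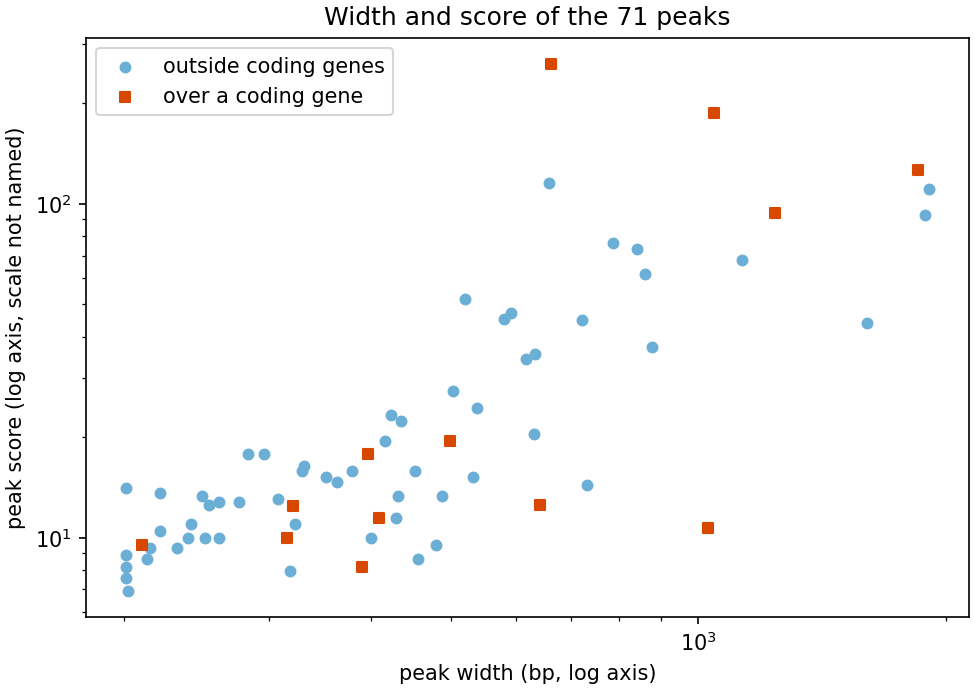
Score against width of the 71 peaks, both on log axes, with the 13 peaks over a protein-coding gene as squares and the 58 others as circles. The 2 widest peaks, of 1906 and 1887 bp, are circles, whereas the 3 highest scores are squares.

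Peaks followed each other closely. Of the 70 gaps between neighbours in the window, 32 (45.7%) were 1000 bp or shorter, where 33.5% of all gaps on the large arms are. The median gap was 1175 bp (interquartile range 406 to 4747 bp), and 43 of 433 windows (9.93%) had a shorter one, with a median over windows of 2654 bp. Without the weaker peaks the spacing no longer stood apart. With the highest 50% of peaks, 47.1% of the 414 windows with at least 5 such peaks had a shorter median gap. When peaks within 1000 bp were merged, 39.3% of windows had a shorter one. Merging leaves out no weak peak and removes all short gaps by construction, so that value does not bear on the weaker peaks. Only 5 gaps of the cluster were longer than 10000 bp (7.14%, background 17.9%). When peaks less than 1000 bp apart were counted as 1 group, the 71 peaks formed 39 groups, of which 22 were single peaks and the largest had 4.

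Most peaks of the cluster lay outside genes. The gene table used here is numbered on release 6 and gives no strand, so genes were placed by the low and high ends of their bodies, on the premise that this part of 2L is numbered alike in both releases. The peaks themselves bear on that premise: over all of 2L, the highest 50% of peaks lay within 300 bp of an end of a coding gene more often with the table unshifted than with any other of 2001 offsets tried, up to 200 kb either way. The margin was small, with a share of 15.4% unshifted and up to 15.0% at another offset. This check was added after the planned one, with all peaks and a coarser grid, in which 1 of 201 offsets gave a higher share than the unshifted table, so that the planned check alone did not single out the unshifted table. All distances from genes given here rest on this premise. Protein-coding genes took up 18.4% of the length of the window. This was the lowest share among the 2L windows with at least 5 peaks (83 others, median 69.2%). The 2L windows with fewer peaks were not compared. Of the 71 peaks, 13 (18.3%) overlapped a protein-coding gene, where 74.2% of the peaks of 2L do, so coding genes held about the same share of the peaks as of the length. Another 6 peaks overlapped only a gene of a long noncoding RNA and 52 overlapped neither. More than 10000 bp from any protein-coding gene were 20 of the 71 peaks (28.2%, background 6.74%). The window has stretches without a coding gene of 24.8, 56.3 and 41.3 kb. Its share of length this far from a coding gene was not measured, so the 28.2% cannot be read as an excess over length.

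**Figure D3:**
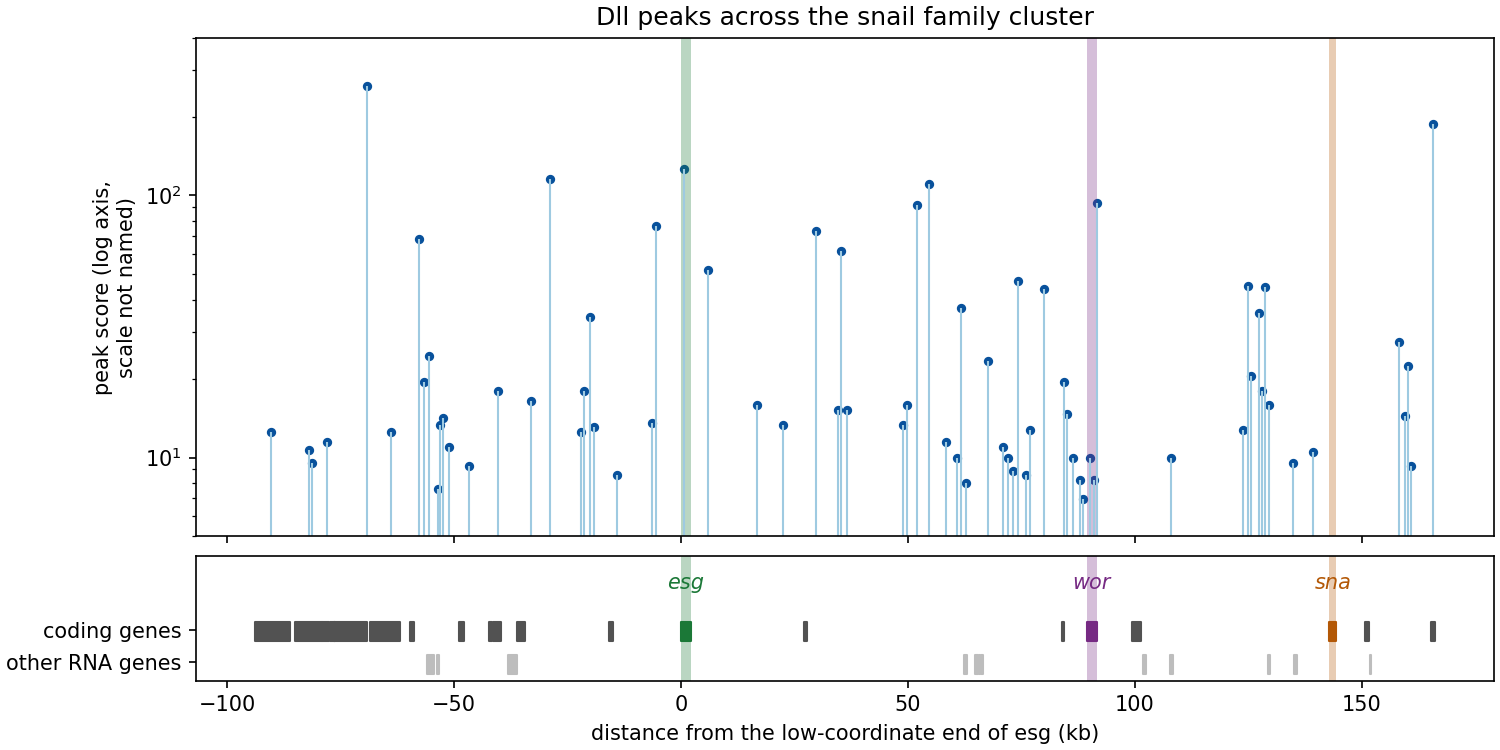
Map of the cluster. The upper panel gives each of the 71 peaks at its midpoint by score on a log axis, the lower panel the protein-coding genes and the noncoding RNA genes, and the horizontal axis the distance in kb from the low-coordinate end of esg. Peaks lie along the gene-poor stretch between esg and wor, more closely set toward wor, and none lies over sna.

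The 3 genes themselves differed in their peaks. The body of esg was overlapped by 1 peak, that of wor by 3 and that of sna by 0, while 34.2% of the 2651 protein-coding genes of 2L have at least 1. Within 10 kb of the gene body there were 4 peaks at esg, 9 at wor and 2 at sna, against a median of 3 (interquartile range 1 to 5) for the genes of 2L. The highest score in that range was 126.46 for esg, 94.03 for wor and 10.48 for sna. Among protein-coding genes of 2L, 84.8% had a lower highest score than esg, 80.8% than wor and 20.4% than sna. These are values of single peaks in 1 list, and no test of the differences between the genes was possible.

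At esg, the imaginal cell factor, a peak of 1849 bp ran over the low-coordinate end of the gene, from 15333499 to 15335347, with a score of 126.46. It was the third highest and the third widest peak of the cluster and ranked 940 among the 15615 peaks of the large arms. On the low side, a peak with a score of 76.40 lay 5185 bp from the gene, at 15327895 to 15328680, with a weak one of score 13.60 beside it. On the high side a peak with a score of 52.03 lay 3399 bp away, at 15339538 to 15340057, followed by an empty stretch of 10469 bp. Of the 4 peaks near esg, 3 were in the highest 25% of the large arms.

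At wor, the neuroblast factor, the strongest peak ran over the high-coordinate end of the gene, from 15425030 to 15426267, with a score of 94.03 and a width of 1238 bp. The other peaks over the gene body scored 10.00 and 8.18. On the low side of the gene 6 more peaks followed within 10 kb, with scores from 6.93, the lowest of the whole cluster, to 43.95. The last of these, at 15413137 to 15414739, was 1603 bp wide and lay 8557 bp from wor and 3189 bp from CG44869. On the high side of wor no peak lay within 10 kb, and the next one, with a score of 10.00, lay 16174 bp from the gene. The peaks within 10 kb of wor were thus many, mostly weak and, outside its body, on one side, with 2 of 9 in the highest 25%. Several of those on the low side lay nearer to CG44869 than to wor, and CG44869 had 12 peaks within 10 kb.

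At sna, the mesoderm factor, no peak touched the gene. The nearest lay 3369 bp away on the low side, at 15473003 to 15473223, with a score of 10.48. The second, 7619 bp away, scored 9.52. On the high side the nearest peak was 13691 bp away. The gene sat in the longest gap of the cluster, 18728 bp, a length that 8.27% of the gaps of the large arms reach or exceed. Of the 20 protein-coding genes that lie at least partly in the window, 3 had no peak within 3000 bp, namely CG4161, sna and Tim17b2 (15.0%, background 39.0%). A gene this far from a peak was thus not rare on 2L, though it was in the minority in the window.

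**Figure D4:**
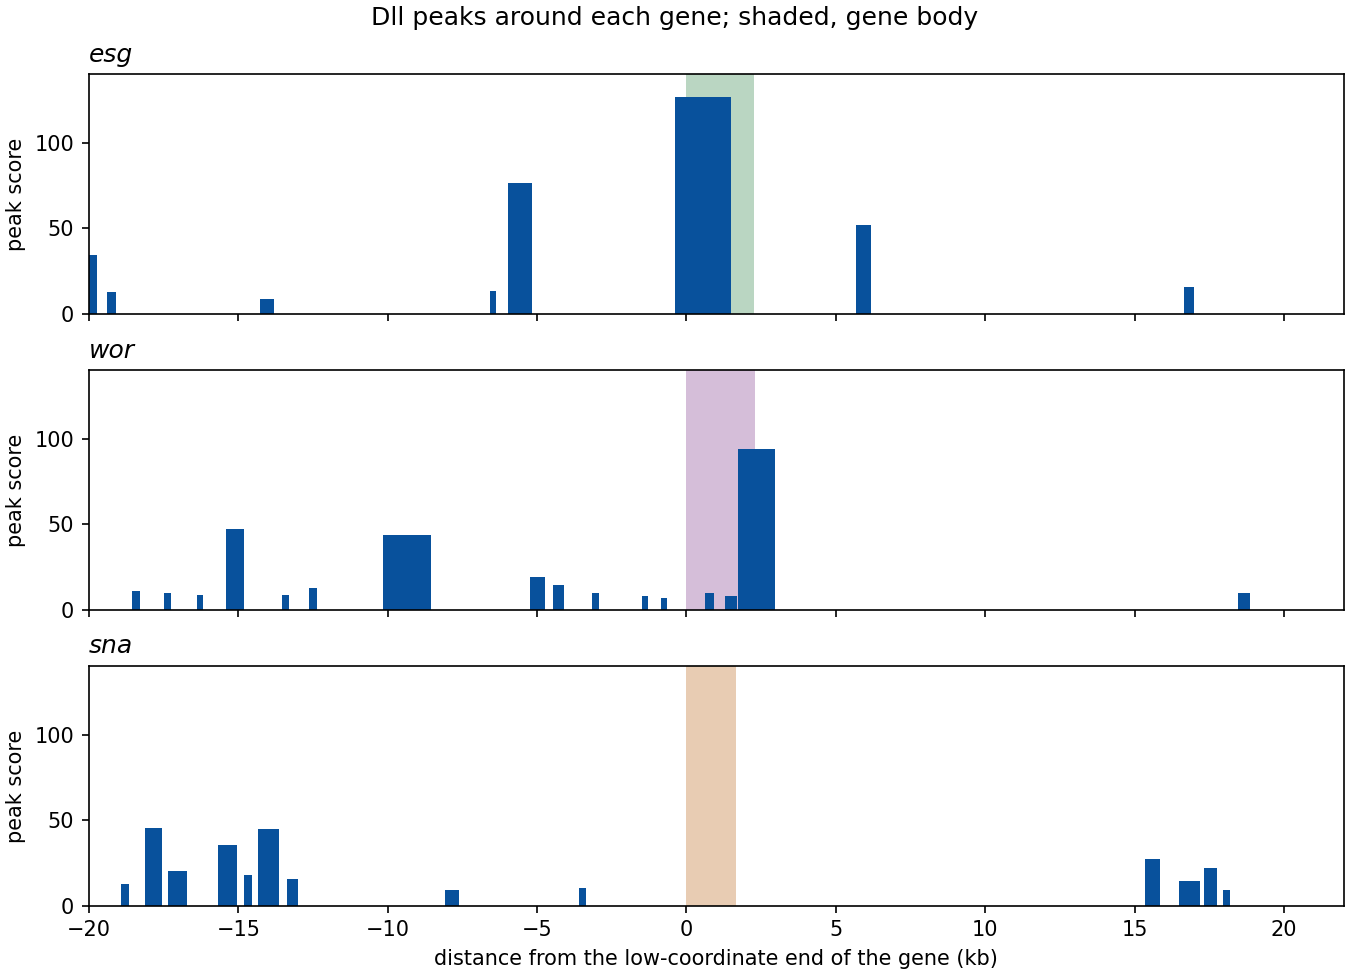
Peak score against distance from the low-coordinate end of esg, wor and sna (kb), each peak drawn as a bar of its own width and the gene body shaded. The peaks reach 126.46 at esg and 94.03 at wor, and the bars next to sna within 10 kb do not exceed 10.48.

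Farther from sna, peaks resumed on both sides. On the low side 7 peaks lay between 13001 and 18656 bp from the gene, in groups of 3 (15457661 to 15459864) and 4 (15460908 to 15463591). Peaks covered 67.4% of the first group and 75.1% of the second, with highest scores of 45.26 and 44.83. On the high side a group of 4 lay at 15491952 to 15494769, between the mitochondrial translocase gene Tim17b2 and lace, with a highest score of 27.57. Within 20 kb, sna thus had 13 peaks, esg 8 and wor 16.

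Among the stretches between the family's genes and out to the bounds of the window, the one between esg and wor, 87.2 kb long, had the most peaks for its length. It held 28 peaks with midpoints in it, or 3.21 per 10 kb, and they covered 17.9% of its length. The 93.9 kb from the low end of the window to esg held 24 peaks (2.56 per 10 kb). The 51.0 kb from wor to sna held 11 (2.16 per 10 kb). By its midpoint, the strong peak over the high end of wor, with a score of 94.03, was counted among these 11. The 21.7 kb from sna to the high end of the window held 5 (2.3 per 10 kb). Of the peaks between esg and wor 8 were in the highest 25% of the large arms, and their median score was 14.9.

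The 2 widest peaks of the cluster lay side by side in this stretch, far from any coding gene. They spanned 15384960 to 15386846 (1887 bp, score 92.32) and 15387665 to 15389570 (1906 bp, score 111.05), 818 bp apart, and together covered 82.3% of 4.61 kb. The second was 51526 bp from esg and 33726 bp from wor, and its nearest coding gene, CG15258, was 26037 bp away. Nearer to esg, but on the same side of CG15258, lay peaks at 15363250 to 15364091 (73.23) and at 15368694 to 15369554 (61.57). A run of 24 peaks without a gap over 5000 bp extended from 15382627, on the low side of the wide peaks, to 15426267 at the high end of wor.

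Between CG15258 and CG44869, the longest part of this stretch without a coding gene at 56.3 kb, there were 20 peaks, or 3.55 per 10 kb over 23.0% of the length. On 2L there were 111 other stretches of at least 20 kb without a coding gene, with a median of 0.396 peaks per 10 kb, and 101 of them had fewer peaks per 10 kb. Other stretches had more, such as the 35.1 kb between tup and ssp3 (5.99 per 10 kb) and the 23.5 kb between the leg joint genes sob and odd (4.69 per 10 kb). The 41.3 kb between CG4161 and sna had 2.42 peaks per 10 kb, and the 24.8 kb between esg and CG15258 had 1.21.

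The 2 highest peaks of the window were not at the family's genes, while the third was the peak over esg and the sixth that over wor. The highest of all, at 15264337 to 15264997, scored 262.08 over 661 bp and overlapped the end of yuri next to Cul3, which encodes a scaffold of ubiquitin ligases. It lay 68868 bp from esg and ranked 232 on the large arms. The second, at 15499024 to 15500069 with a score of 187.02, overlapped the low end of lace, which encodes a subunit of the serine palmitoyltransferase of sphingolipid synthesis, 20763 bp from sna. The fourth, at 15304605 to 15305261 with a score of 115.30, overlapped no coding gene and was 28604 bp from esg. The last of the 10 highest, at 15275461 to 15276591 with a score of 68.08, lay 369 bp from UK114. In all, 292 of 451 other windows had a lower highest peak than this window. The coding genes of the low part of the window, ZnT35C, dao, PolD3, Cul3 and ms(2)35Ci, were otherwise overlapped only by peaks with scores from 9.52 to 17.87.

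Membership by overlap instead of midpoint also gave 71 peaks, while with 20 kb less at both ends the window held 62. The first peak inside, at 15243061 to 15243702, scored 12.49 and overlapped ZnT35C, and the nearest outside, at 15229353 to 15229601, scored 10.00 and overlapped the same gene. At the other end the peak of lace with a score of 187.02 was the last inside, its midpoint 453.5 bp from the bound, and the next peak, at 15502741 to 15502986, scored 7.76 and overlapped lace as well.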

How the data were processed

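The data are 1 peak list for 2 Dll ChIP and 2 input libraries. The submitters' processing notes name BWA, MACS2 and CASAVA (versions 1.7.0.2 and 1.7.0.3) and the build BDGP 5. What threshold and filters were applied, and whether replicates were pooled, is not given in the sources used here. The list is GFF version 3 on FlyBase release 5, per the file headers. The peak score is the authors' deposited value under the name MACS, its scale not named.

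The members and lists were chosen with earlier results of these data known. Widths are end minus start plus 1, and gaps are the bases between neighbours. Whole windows of 260 kb were laid outward from the cluster on 2L and from the first peak on 2R, 3L, 3R and X. Medians, gaps and the shares in coding genes use windows with at least 5 peaks. Shares of windows have exact Clopper-Pearson intervals. Peaks and windows are not replicates, so no test was made. Genes named are those in the window, and peaks named are the 10 highest, the 5 widest, those nearest to esg, wor and sna, those at the longest gap and those at the bounds. Others (groups of peaks, the longest runs and stretches without coding genes) were chosen after their values were seen, as were the shares of peaks and length in coding genes.

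Genes came from the RefSeq table of release 6. Its 2L numbering was tested against the peaks. With all 2862 peaks of 2L, 24.3% lay within 500 bp of a gene end in the unshifted table, and 1 of 201 shifts up to 100 kb gave more (median of the others 21.6%). In a check added after that, with the highest 50% of 2L peaks and coding genes within 300 bp, no shift of 2001 up to 200 kb exceeded the unshifted share of 15.4%. The other shifts had a median of 11.2% and a maximum of 15.0%. On X the same check peaked at a shift of -106000 bp, also with the highest 25%. On 2R, 3L and 3R the best shift differed between the highest 50% and 25%, so no offset was found there. The plan was to give no distance unless the unshifted share stood out in the first check, where another shift gave 24.6%; distances are given on the added check and on the rule that chose the window. The check covers the arm as a whole and does not test each position. The planned search for motifs in promoters and comparison of the proteins were not run, as no sequence was used here. Distances from gene starts became distances from gene bodies, as the table gives no strand. Python 3.11.15, pandas 2.3.3, numpy 2.4.6 and scipy 1.17.1 were used.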

Additional observations from a re-analysis of the deposited data

How the results depend on the processing

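No paired analysis was possible because the list gives no values per library, and for the same reason no replicate could be left out. Of 54 alternative values for 6 measures, from 9 other choices of grid, arms, peaks, membership or bounds, 36 stayed within the interval of the reported share of windows below it. The share for the highest score moved beyond its interval in none of its 9 alternatives. Peak number (95.1% of windows below) went to 97.7% among windows of 2L, 85.2% with the highest 50% of peaks and 92.5% with peaks merged within 1000 bp. Coverage (90.0%) went to 95.3% on 2L and 84.3% with the highest 50%. The median gap (9.93%) went to 6.02% on 2L and to 47.1% and 49.3% with the highest 50% and 25%. The close spacing was thus no longer apart from other windows once weaker peaks were left out. After merging, which removes short gaps by construction, the share for the median gap was 39.3%. Median width (44.1%) went to 51.8% on 2L, 52.4% and 55.9% with the highest 50% and 25%, 87.3% after merging and 33.1% with 20 kb less at both ends. Median score (23.8%) went to 78.5% and 48.4% with the highest 50% and 25%, 52.2% after merging and 32.9% with 20 kb less. The low place of the median score thus did not hold among the stronger peaks. A merged peak takes the highest score of its parts, and its width includes the gaps between them. The shares for score and width after merging thus follow in part from the merging itself. The 15 peaks within 10 kb of esg, wor or sna became 37 within 20 kb, and 6 and 5 with the highest 50% and 25%, of which 0 were near sna in both. Why the list has many weak peaks here was not tested. A list already cut at a threshold cannot show peaks that more depth would add.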
